A study of Drosophila melanogaster with 8 samples.

Results

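The genes described here are 9 enzymes of mucin-type O-glycosylation in *Drosophila melanogaster*: the polypeptide GalNAc transferases Pgant2, Pgant3, Pgant4, Pgant5, Pgant6, Pgant7, Pgant8 and Pgant9, and the core 1 galactosyltransferase C1GalTA. They were found as the probe sets annotated to a single gene whose symbol or synonym is among these names, which gave 12 probe sets for the 9 genes, out of 13647 such probe sets for 11983 genes. Pgant2, Pgant7 and Pgant9 have 2 probe sets each. The family was selected on the ZxZ minus ZxM difference of Pgant7, which was lower in ZxZ females with one probe set and not with the other, so the values of Pgant7 are given as a description, with no test.

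Whole SZ females were compared after mating with SZ males (ZxZ, 4 pools) or with LHM males, the outbred laboratory strain that stood for the cosmopolitan M strain (ZxM, 4 pools). All females came from the same composite Zimbabwean line, mixed from 6 strong Z lines (ZS2, ZS11, ZS53, ZS56, ZH12 and ZH32), and were virgin until the experiment at 7 days after eclosion. Each pool held 8 females, frozen 30 minutes after copulation, and went to an Affymetrix Drosophila Genome 2.0 array of its own. The comparison asks which female genes differ in expression after mating with more and with less preferred males. RNA of whole flies does not show the tissue, and fewer cells of a type cannot be told apart from less RNA per cell.

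Mucin-type O-glycosylation takes place in the Golgi apparatus. A Pgant enzyme transfers N-acetylgalactosamine (GalNAc) from UDP-GalNAc to a serine or threonine of a secreted or membrane protein. Some Pgant enzymes act on bare peptides and others, Pgant7 among them, on peptides that already carry GalNAc. C1GalTA then adds galactose and makes the core 1 disaccharide (T antigen), the main O-glycan of the fly. The family coats mucins of the gut lining and salivary secretions and modifies proteins of the extracellular matrix.

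Values are log2 expression levels of the deposited table, which run from 6.05 to 15.15 over all probe sets, and a level near the lower end cannot be told from no expression. Pearson's r between any 2 arrays was 0.996 to 0.998 over the probe sets of the table, which share their arrays and are no replicates. The 75th percentile of an array was 9.45 to 9.53 in ZxZ and 9.54 to 9.63 in ZxM, so the groups did not overlap in the upper part of the scale, while the median of an array was 7.27 to 7.31 in ZxZ and 7.23 to 7.29 in ZxM. The part of this shift in the differences below was not tested beyond the scalings given further on. The yolk protein genes Yp1, Yp2 and Yp3 had group means between 14.5 and 15.1, and the mean of 12 male accessory gland and testis genes was 6.69 to 6.70 in ZxZ and 6.64 to 6.71 in ZxM, near the lower end. Of these 12, 6 were tested in the fit by gene given further on. Only SP of the 6 was called, higher in ZxZ at 6.74 against 6.60. All 8 ovary and yolk genes were tested, with 2 called lower (orb and otu) and 1 higher (Yp3). Over all tested genes 17.6% were called lower and 1.1% higher. None of the 8 gut markers was called, nor any of the 3 neuron markers tested, while 4 measured neuron markers were not tested. Differences are ZxZ minus ZxM on the log2 scale, estimated with array weights by limma over all 13647 probe sets unless stated. They can therefore depart from the difference of the plain group means. Values of tested genes named from the pathway lists come from the fit of tested genes, and list medians from all probe sets.

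Pgant7 lies on the X chromosome and encodes a glycopeptide-preferring GalNAc transferase. Its probe set 1629117_at read 9.48, 9.51, 9.49 and 9.43 in ZxZ replicates 1 to 4 and 9.73, 9.60, 9.69 and 9.68 in ZxM replicates 1 to 4. Every ZxZ array was below every ZxM array. The group means were 9.47 ± 0.0341 (SD, n = 4) and 9.67 ± 0.0520 (SD, n = 4), and the difference was -0.21 (SE 0.0383), a level 1.15-fold higher in ZxM. The other probe set, 1637736_a_at, read 9.35, 9.23, 9.46 and 9.27 in ZxZ and 9.27, 9.39, 9.31 and 9.36 in ZxM. Here the groups overlapped, with the highest and the lowest array both in ZxZ. Its means were 9.33 ± 0.10 (SD, n = 4) and 9.33 ± 0.0561 (SD, n = 4), with a difference of 0.015 (SE 0.0546). The sign of this second value is not fixed, since it was -0.0056 without array weights, -0.023 with arrays centred on their median and 0.096 after quantile normalization. By the naming of the array, a probe set ending in _a_at reads several transcripts of 1 gene, while the plain ending _at marks probes meant for 1 transcript, and Pgant7 has several transcripts in the gene table. Which transcripts each Pgant7 probe set reads was not analysed here. After subtraction of the group means the 2 probe sets correlated at -0.28 over the 8 arrays, as a description.

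**Figure D1:**
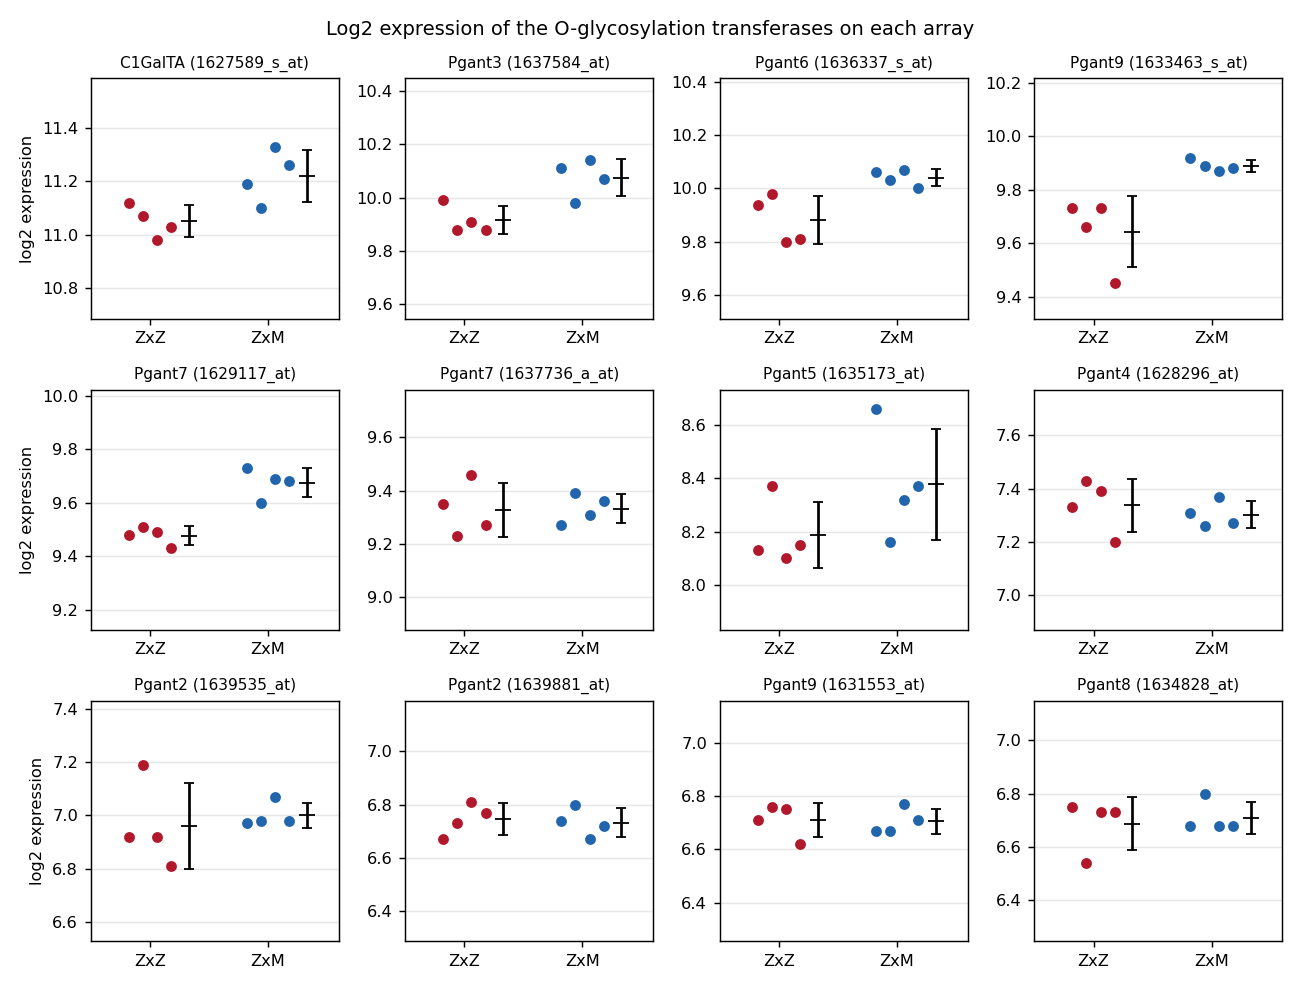
Log2 expression (vertical axes, all spanning 0.9 units) of the 12 probe sets on the 4 ZxZ arrays (red) and the 4 ZxM arrays (blue), with the group mean and SD in black. The groups do not overlap for Pgant6, Pgant9 1633463_s_at and Pgant7 1629117_at, while both means of Pgant7 1637736_a_at round to 9.33.

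The other 2 genes with 2 probe sets were Pgant9 and Pgant2. Pgant9, known for the glycosylation of salivary gland glue mucins, read 9.73, 9.66, 9.73 and 9.45 in ZxZ and 9.92, 9.89, 9.87 and 9.88 in ZxM with 1633463_s_at. All 4 ZxZ arrays were below the ZxM arrays, and replicate 4 was the lowest of them. The difference was -0.23 (SE 0.0554, 95% confidence interval -0.36 to -0.11, adjusted p = 0.126 from limma over all probe sets). Its second probe set, 1631553_at, lay between 6.62 and 6.77 on all arrays, at percentile 19.3 of all probe sets by mean, and differed by 0.021 (SE 0.0421, adjusted p = 0.801 from limma). A probe set ending in _s_at can also read transcripts of other genes. This holds too for the only probe sets of Pgant6, C1GalTA and Pgant1, given further on. Idgf6, which overlaps Pgant9 in the gene order of Release 6 plus ISO1 MT, was at a mean of 12.1 with a difference of 0.0089 (SE 0.0598). Pgant2 lay at the lower end with both its probe sets, 1639535_at between 6.81 and 7.19 and 1639881_at between 6.67 and 6.81. The 2 differences were -0.025 (SE 0.0683, adjusted p = 0.858 from limma) and 0.011 (SE 0.0430, adjusted p = 0.902).

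How far 2 probe sets of 1 gene differ in their contrast was measured on each array as the probe set of the higher mean minus the other, for 2853 pairs in 1094 genes. For Pgant9 the ZxZ arrays had 2.93 ± 0.0832 (SD, n = 4) and the ZxM arrays 3.19 ± 0.0616 (SD, n = 4), and the 2 groups did not overlap. The difference was -0.24 (SE 0.0572, 95% confidence interval -0.36 to -0.12, adjusted p = 0.193 from limma over all pairs). An exact permutation test, two-sided, gave p = 0.0286, the smallest possible with 8 arrays, and 0.0571 once adjusted for the 2 pairs tested. After quantile normalization the Pgant9 difference was -0.11 (SE 0.0625, adjusted p = 0.576 from limma over all pairs). The weaker of the 2 probe sets lies near the lower end of the scale, where differences are compressed. The part of this in the difference was not tested. For Pgant2 the difference between the probe sets was -0.061 (95% confidence interval -0.23 to 0.11, adjusted p = 0.789 from limma, exact p = 0.629 and also 0.629 after adjustment).

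Pgant7 differs from both in that neither of its probe sets lies near the lower end. Its 2 probe sets were 0.149 ± 0.0999 (SD, n = 4) apart in ZxZ and 0.342 ± 0.105 (SD, n = 4) in ZxM, and these values overlapped between the groups. The difference of -0.22 (SE 0.0649) was exceeded in size by 3.36% of all pairs, and by 6 of the 212 pairs whose probe sets both have a mean of at least 9. The family was chosen on this pair, so its rank is a description and no test. Opposite signs were common over the array, with 41.3% of all pairs and 22.2% of the pairs with both means of at least 9. No pair was called by limma at 10% FDR (0% of 2853), and 361 had an unadjusted p under 0.05 (12.7%).

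**Figure D2:**
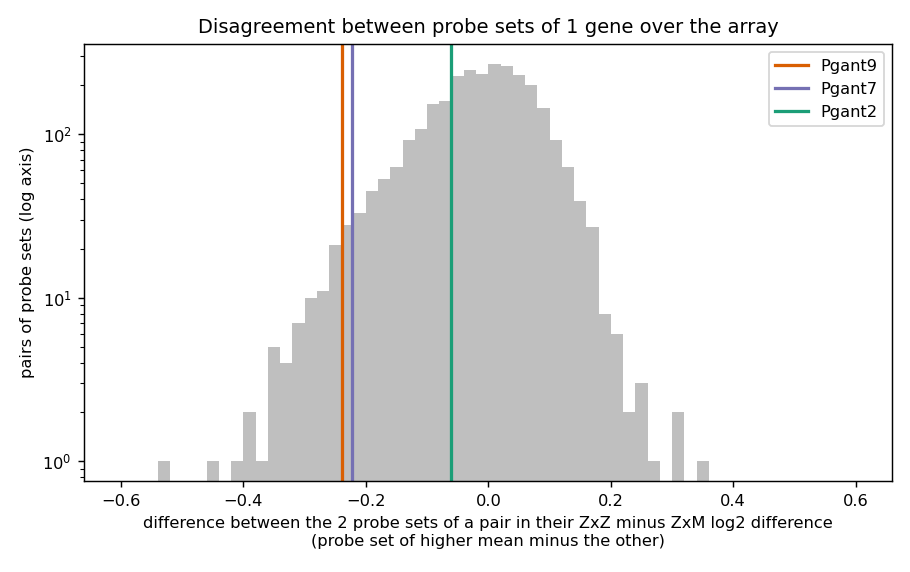
Number of pairs of probe sets of 1 gene (vertical, log axis) by the difference between the 2 probe sets in their ZxZ minus ZxM log2 difference (horizontal), over 2853 pairs. The lines mark Pgant9 at -0.24, Pgant7 at -0.22 and Pgant2 at -0.061, of which the first 2 lie in the lower tail. The family was chosen on Pgant7, so its place is a description.

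Among the initiating transferases with 1 probe set, Pgant3, Pgant5 and Pgant6 had negative differences. Pgant3, which glycosylates the matrix protein Tiggrin and is needed for integrin-dependent cell adhesion in the wing, read 9.99, 9.88, 9.91 and 9.88 in ZxZ and 10.11, 9.98, 10.14 and 10.07 in ZxM. The groups touched at a single point, ZxZ replicate 1 just above ZxM replicate 2. The difference was -0.17 (SE 0.0427, 95% confidence interval -0.26 to -0.073, adjusted p = 0.130 from limma over all probe sets). Pgant6 read 9.94, 9.98, 9.80 and 9.81 in ZxZ and 10.06, 10.03, 10.07 and 10.003 in ZxM. Its groups did not overlap, with a difference of -0.16 (SE 0.0478, 95% confidence interval -0.26 to -0.052, adjusted p = 0.151 from limma).
Pgant5, which is needed for acidification of the larval digestive tract, read 8.13, 8.37, 8.10 and 8.15 in ZxZ and 8.66, 8.16, 8.32 and 8.37 in ZxM. The groups overlapped, and ZxM replicate 1 stood above all other arrays. The difference of -0.25 had the largest error of the 12 probe sets (SE 0.0976, 95% confidence interval -0.47 to -0.036, adjusted p = 0.200 from limma). The plain group means were 8.19 ± 0.126 (SD, n = 4) and 8.38 ± 0.211 (SD, n = 4), a smaller gap than the fitted one, in which ZxM replicate 1 had a weight of 1.49 and ZxM replicate 2 one of 0.655. Without ZxM replicate 1 the fitted difference was -0.14.

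C1GalTA, which makes core 1 on the GalNAc that the Pgant enzymes attach, read 11.12, 11.07, 10.98 and 11.03 in ZxZ and 11.19, 11.10, 11.33 and 11.26 in ZxM. The groups overlapped only through ZxM replicate 2, which was below ZxZ replicate 1. The means were 11.05 ± 0.0609 (SD, n = 4) and 11.22 ± 0.0958 (SD, n = 4), with a difference of -0.18 (SE 0.0496, 95% confidence interval -0.29 to -0.067, adjusted p = 0.137 from limma over all probe sets). The galactosyltransferase of the following step thus had a difference of the size seen for Pgant3 and Pgant6, between which no test was made.

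Pgant4 and Pgant8 showed no such difference. Pgant4, which in the larval gut protects the cargo receptor Tango1 from cleavage, read 7.33, 7.43, 7.39 and 7.20 in ZxZ and 7.31, 7.26, 7.37 and 7.27 in ZxM. The groups overlapped, with a difference of 0.051 (SE 0.0502, 95% confidence interval -0.060 to 0.16, adjusted p = 0.584 from limma). Pgant8 lay between 6.54 and 6.80 on all arrays and differed by -0.011 (SE 0.0513, 95% confidence interval -0.12 to 0.10, adjusted p = 0.926). These intervals do not show that the groups are alike, and VSN compresses differences between values this low.

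The 12 probe sets thus split by signal. All 5 with a mean below 8 (both of Pgant2, those of Pgant4 and Pgant8 and Pgant9 1631553_at) had differences between -0.025 and 0.051. Of the 7 with a mean of at least 8, 6 had differences between -0.25 and -0.16, and the exception was Pgant7 1637736_a_at. The same split ran through the whole array. The median difference was 0.016 over 4159 probe sets with means from 6 to 7, -0.058 over 1488 from 8 to 9, -0.091 over 2146 from 9 to 10, -0.10 over 1922 from 10 to 11 and -0.069 over 1195 above that.
Within these ranges of signal the 6 lay below the median. A difference as low or lower was found for 14.8% of probe sets in the range of Pgant6, 11.6% in that of Pgant3, 4.85% in that of C1GalTA, 4.52% in that of Pgant7 1629117_at, 2.56% in that of Pgant9 1633463_s_at and 2.02% in that of Pgant5. Pgant7 1637736_a_at stood on the other side, with 7.50% of the probe sets from 9 to 10 at or above it. These shares are descriptions. Outside Pgant7, 2 of the 10 probe sets were lower in ZxZ without any overlap of the groups (Pgant6 and Pgant9 1633463_s_at), against 8.01% of all probe sets. Both have means from 9 to 11, where the share was 19.9% of 4068 probe sets. Outside Pgant7 only the probe set of Pgant3 also has a mean in that range, and its groups overlapped. None of the 10 was higher without overlap, against 1.56% of all. Pgant7 1629117_at is left out of this count because its difference chose the family.

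**Figure D3:**
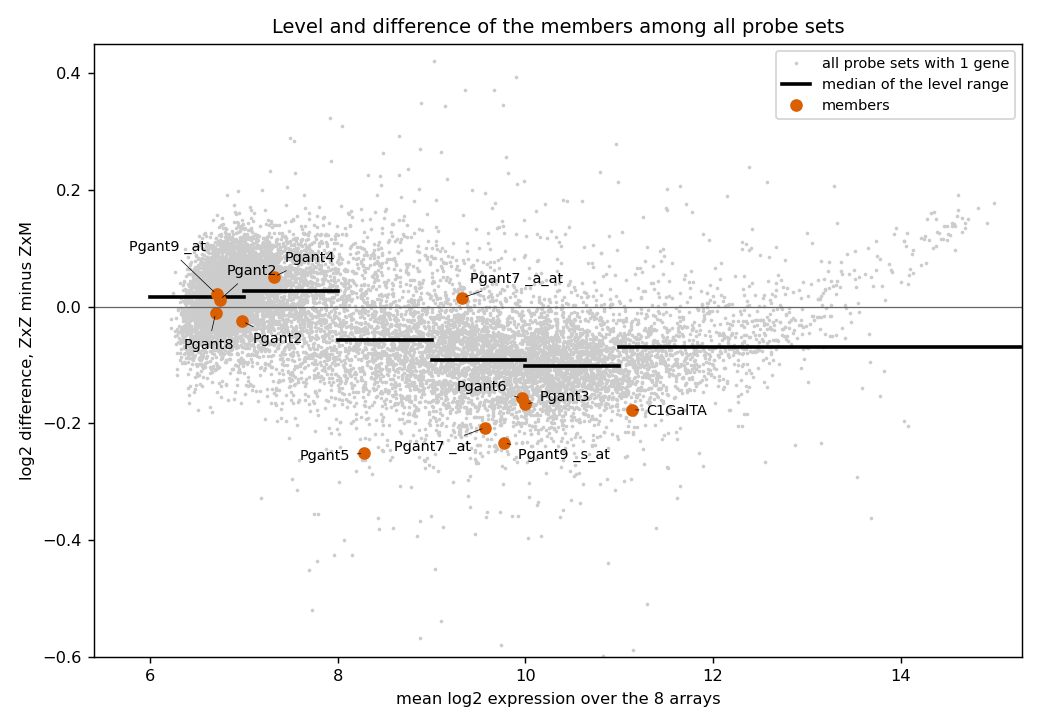
Log2 difference ZxZ minus ZxM (vertical) against the mean log2 level over the 8 arrays (horizontal) for 13647 probe sets (grey) and the 12 of the family (orange), with the median of each range of level as a black line. The 7 probe sets outside the vertical axis are not drawn. The members of low signal lie near 0, 6 of the others lie below the medians of -0.058 to -0.10, and Pgant7 1637736_a_at lies above them at 0.015.

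No probe set of the array passed 10% FDR when all 13647 were fitted together with limma (0%), so none of the 12 did. At an unadjusted p under 0.05 the fit had 2718 probe sets (19.9%), of which 2318 were lower in ZxZ (17%), and 5 of the 10 probe sets outside Pgant7 were among them, all lower. These 5 all have means of at least 8, and the share at such levels was not analysed here, so nothing is read from this count. After quantile normalization only Pgant9 1633463_s_at of these 5 stayed under 0.05 (unadjusted p = 0.0331 from limma), where 1050 of all probe sets did. Each gene was then taken with its most variable probe set, and the 5991 most variable genes were tested (the upper 50% by interquartile range). Here limma called 1057 genes lower in ZxZ (17.6%) and 66 higher (1.1%). Of the 9 genes 7 passed this filter, Pgant2 and Pgant8 did not, and 6 were called lower and none higher. Pgant7 is one of the 6 and was the reason for the choice. The filter keeps genes that vary between arrays, so nothing is read from this count. Its background ran with level, with 30.8% called lower among the 2591 tested genes with means from 9 to 11. It was 14.1% from 8 to 9, the range of Pgant5, and 12.4% above 11, the range of C1GalTA.
The 5 called genes outside Pgant7 differed in this fit by -0.25 for Pgant9 (SE 0.0650, adjusted p = 0.0866 from limma), -0.18 for Pgant3 (SE 0.0486, adjusted p = 0.0874), -0.19 for C1GalTA (SE 0.0552, adjusted p = 0.0874), -0.18 for Pgant6 (SE 0.0538, adjusted p = 0.0888) and -0.29 for Pgant5 (SE 0.0990, adjusted p = 0.0937). Pgant4 at 0.035 did not pass (SE 0.0580, adjusted p = 0.666). Leaving out ZxZ replicate 3, ZxZ replicate 4, ZxM replicate 1 or ZxM replicate 3 left none of the 6 called and no gene of the array called, and without any one of the other 4 arrays all 6 were called. In this fit Pgant6 was at -0.11 without ZxZ replicate 3, and Pgant5 at -0.16 without ZxM replicate 1.

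The size of these differences moved with the scaling of the arrays. Quantile normalization moved the median of the 5991 tested genes from -0.094 to -0.013 and left no call among them, with 584 at an unadjusted p under 0.05. The differences of the 6 higher-signal probe sets shrank but kept their sign: to -0.19 for Pgant5, -0.13 for Pgant9 1633463_s_at, -0.12 for Pgant7 1629117_at, -0.081 for C1GalTA, -0.063 for Pgant3 and -0.055 for Pgant6. Only for Pgant7 1629117_at did the groups still not overlap. With arrays centred on their median the same values ran from -0.28 for Pgant5 to -0.19 for Pgant6. There limma called 1100 of all 13647 probe sets, and 4 of the 10 member probe sets outside Pgant7 (C1GalTA, Pgant3, Pgant6 and Pgant9 1633463_s_at). How these calls run with level was not analysed here, so nothing is read from this count.
Pgant5, Pgant9 1633463_s_at and Pgant7 1629117_at thus had the most negative values under each of the 3 scalings. For Pgant7 the quantile-normalized values of the 2 probe sets lay on opposite sides, -0.12 (SE 0.0333) and 0.096 (SE 0.0595). With the most variable probe set picked from the quantile-normalized values, 1637736_a_at stood for Pgant7, and its difference in that fit was 0.10.

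**Figure D4:**
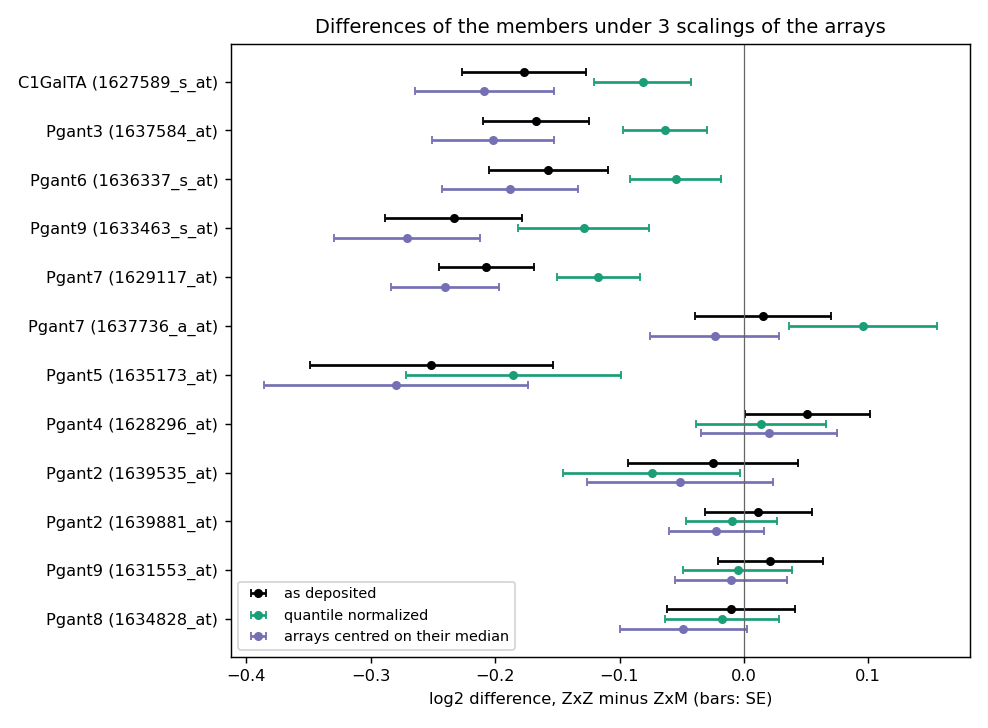
Log2 difference ZxZ minus ZxM with its SE (horizontal) for the 12 probe sets in order of mean level, as deposited (black), after quantile normalization (green) and with arrays centred on their median (purple). The quantile-normalized values of the higher-signal probe sets lie nearer to 0, from -0.19 to -0.055, except for Pgant7 1637736_a_at, which lies at 0.096.

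The other genes of the pathway were taken as 5 lists, with 81 measured genes, of which 36 were tested. Of these 6 were called lower in ZxZ and none higher, 16.7% against 17.6% of all tested genes. Of 15 measured further GalNAc transferases and relatives of C1GalTA, 1 was tested and called: Pgant1, a GalNAc transferase, with means of 9.92 ± 0.0669 (SD, n = 4) for ZxZ and 10.10 ± 0.0866 (SD, n = 4) for ZxM and a difference of -0.21 in the fit of tested genes (SE 0.0538, adjusted p = 0.0866 from limma). Pgant35A, a GalNAc transferase needed for tracheal tubes, was at 8.85 ± 0.0516 (SD, n = 4) and 8.88 ± 0.0882 (SD, n = 4) and did not pass the filter. The median over the 15 genes was 0.040, against -0.032 for all genes, and 13 of them had means below 8.
Of 12 measured genes that supply UDP-sugars or extend core 1, 5 were tested and 1 was lower, Gfat2, an enzyme of the first step of the hexosamine pathway, at -0.19 (SE 0.0595, adjusted p = 0.0888 from limma). The core 1 glucuronyltransferase genes GlcAT-S at -0.13 (adjusted p = 0.128) and GlcAT-P at -0.11 (adjusted p = 0.248), and GlcAT-I at -0.083 (adjusted p = 0.431), did not pass. The median over the 12 was -0.013, and 0.013 after quantile normalization.
Of 24 measured mucins and carriers of O-glycans 13 were tested, and Mur2B, a mucin-related gene, was lower at -0.26 (SE 0.0923, adjusted p = 0.0965 from limma). Mur18B at 0.19 (adjusted p = 0.148), Hmu, the hemomucin gene, at -0.12 (adjusted p = 0.183) and Muc18B at 0.099 (adjusted p = 0.227) did not pass, and the median was 0.0014, or -0.00035 after quantile normalization.

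All 21 measured genes of the Golgi and secretory pathway had negative differences, with a median of -0.095 that became 0.0056 after quantile normalization, and none of the 10 tested was called. Of all genes 62.5% had a negative difference. Most of the 21 have means from 9 to 11, where positive differences were rare over the array. They were found for 9.69% of probe sets from 9 to 10 and 5.36% from 10 to 11, so the sign is no trait of this list. Tango1, the cargo receptor named above with Pgant4, was at 10.02 ± 0.0536 (SD, n = 4) in ZxZ against 10.14 ± 0.0585 (SD, n = 4) in ZxM without overlap of the groups. It was picked out after its values were seen. It did not pass the filter, and over all probe sets it differed by -0.12 (SE 0.0426, adjusted p = 0.167 from limma). Among the tested genes of the list the smallest p were those of Sec31, of the COPII coat, at -0.16 (SE 0.0614, adjusted p = 0.103 from limma), GCC185, a golgin, at -0.17 (adjusted p = 0.103), alphaCOP, of the COPI coat, at -0.14 (adjusted p = 0.107) and Sec24AB, of the COPII coat, at -0.11 (adjusted p = 0.122). Of 9 measured genes of other kinds of O-glycosylation 7 were tested and 3 were lower: shams, a xylosyltransferase that acts on Notch, at -0.18 (SE 0.0488, adjusted p = 0.0874), rt, a protein O-mannosyltransferase, at -0.17 (SE 0.0539, adjusted p = 0.0901) and sxc, the O-GlcNAc transferase, at -0.16 (SE 0.0504, adjusted p = 0.0901). The partner of rt, tw, which encodes the other O-mannosyltransferase, was at 0.12 (adjusted p = 0.199), and the median over the 9 genes was -0.072. The median over the 9 members was -0.17 as deposited and -0.074 after quantile normalization, against -0.032 and 0.00033 for all genes. The member medians include Pgant7, on which the family was chosen. The quantile-normalized one is the value of Pgant2 1639535_at, near the lower end of the scale. The genes compared were not matched in level, so these medians are descriptions.

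**Figure D5:**
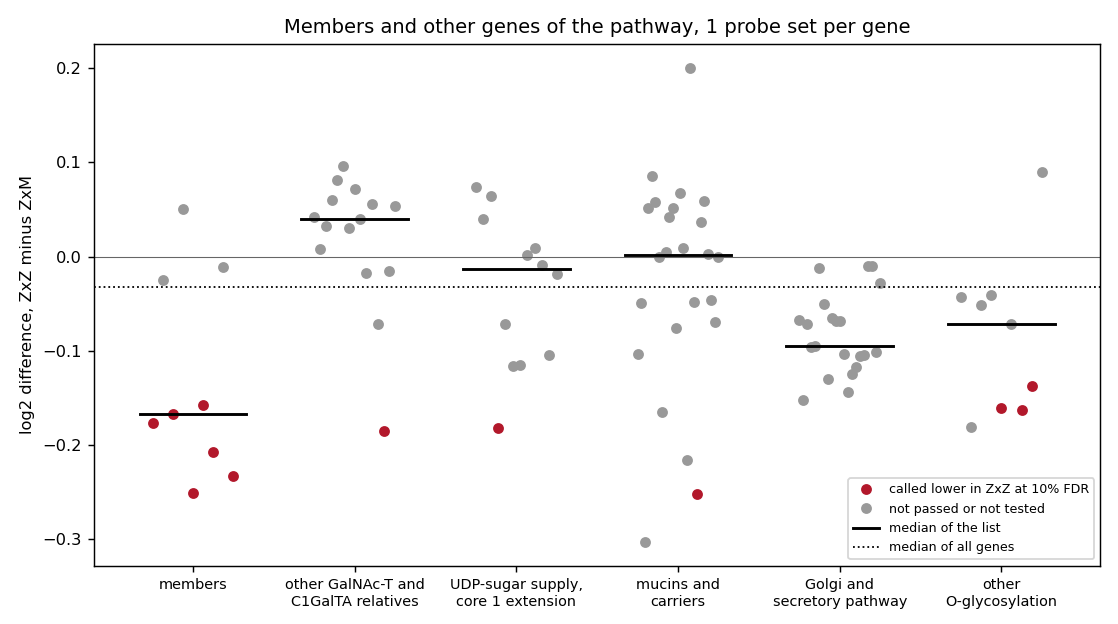
Log2 difference ZxZ minus ZxM (vertical) of each measured gene by list, with the probe set of the largest variance for each gene. Genes called lower at 10% FDR are red, bars are list medians and the dotted line is the median of all genes at -0.032. The members, with Pgant7 on which the family was chosen, have a median of -0.17, and the 15 further transferases one of 0.040. The lists are not matched in level.

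The members are spread over the genome, with Pgant7 on the X, Pgant2, Pgant4, Pgant5 and C1GalTA on 2L, Pgant3 and Pgant9 on 2R, and Pgant6 and Pgant8 on 3L. In the gene order of Release 6 plus ISO1 MT the nearest measured neighbours of Pgant7 were CG15043 at -0.24 (SE 0.0852, adjusted p = 0.176 from limma over all probe sets) and Ggt-1 at -0.045 (SE 0.0433, adjusted p = 0.576). Pgant3 lies between 2 tetraspanin genes, Tsp42Ep at 0.027 (SE 0.0390) and Tsp42Eq at 0.00060 (SE 0.0729). Tsp42Ep had a mean level of 6.86, near the lower end of the scale, and Tsp42Eq one of 8.76. Beside C1GalTA lie Tsp29Fb at -0.013 (SE 0.0775) and CG31886 at -0.12 (SE 0.0490, adjusted p = 0.207 from limma), and CG46397, which overlaps C1GalTA, was not measured. Beside Pgant6 lie mRpS35 at -0.093 (SE 0.0521) and Tet at 0.041 (SE 0.0576). Pgant5 has the ribosomal protein gene RpL37A at 0.11 (SE 0.0584) and CG5828 at -0.027 (SE 0.0374) beside it. Pgant4 neighbours CG31776, of the list of further transferases, at 0.097 (SE 0.0414, adjusted p = 0.229 from limma), and Pgant8 overlaps CG34452, another gene of the list of further transferases, at 0.040 (SE 0.0508).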

How the data were processed

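Per the paper's methods and the processing notes, the authors corrected the background, calibrated the arrays and transformed them with VSN and summarised probe sets with RMA in affy under R 2.8.1. The deposited values are log2 levels of 18952 probe sets on a generalised logarithm, which compresses differences of low values. Neither scanner files nor calls of detection entered the work, and precision is limited by having 4 arrays per group. Gene names are those of the platform annotation, with symbols updated by gene number. Of them 183 are controls, 13647 have 1 gene, 402 several and 4720 are not listed.

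Two-sided moderated tests were made with limma 3.58.1 under R 4.3.3 (arrayWeights with REML, then lmFit and eBayes), with Benjamini-Hochberg adjustment within each of 3 sets: 5991 genes (1 probe set of the largest variance per gene, interquartile range in the upper 50%, the reading taken of the filter in the methods), all 13647 probe sets, and 2853 within-array differences between probe sets of 1 gene. Calls are at 10% FDR. Each fit was run on simulated data with independent noise of equal size on all arrays. The simulation held no shift between the groups that runs with level, so it says nothing on that shift. The members, the lists and the tests were chosen with earlier results of these data known. Named genes are all members and, of each list, the called genes or up to 4 with the smallest p. For 17 of the 98 listed pathway genes no probe set with a single gene was found, and these were not analysed here. The 4 pools of a group are replicates of the matings from the same fly population, with extraction batches not given in the sources used here, so p-values measure only the spread between these pools.

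Alternatives were no array weights, no variability filter, an interquartile range of at least 0.5, the probe set of the highest mean, quantile normalization, cyclic loess, centring on the median, the lowest 25% of probe sets left out, the replicate number as a block, a test with neither moderation nor array weights (the methods use both), and each array left out in turn.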

Additional observations from a re-analysis of the deposited data

Results flagged for a closer look

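In 3 of 36 groups of 4 arrays checked, 1 array lay far from the other 3 (its gap to the nearest, divided by the range of the group, over Dixon's 95% critical value for 4), where chance gives about 1 in 20. For Pgant2 1639535_at in ZxM, replicate 3 was the highest at 7.07 with the next at 6.98 (ratio 0.938). For Pgant8 1634828_at, ZxZ replicate 2 was the lowest at 6.54 with the next at 6.73 (ratio 0.875), and ZxM replicate 2 the highest at 6.80 with the next at 6.68 (ratio 0.966). All 3 are probe sets near the lower end of the scale. Without ZxZ replicate 2 the difference of Pgant8 was 0.034, and without ZxM replicate 2 it was 0.0087, against -0.011 with all arrays.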

How the results depend on the processing

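The differences of C1GalTA, Pgant3, Pgant5, Pgant6 and Pgant9 1633463_s_at were negative in every alternative run. With 1 probe set per gene, against 1123 calls (6 members, all lower, and 6 genes of the pathway lists), limma gave 0 calls without array weights (0 members, 0 pathway genes), and likewise 0 of each with all genes tested, after quantile normalization with probe sets held or chosen again, and after cyclic loess. An interquartile range of at least 0.5 left 51 genes, no member and 0 calls. The replicate block left 1 call and 0 members, the test with neither moderation nor array weights 10 calls and 0 members (1384 at an unadjusted p under 0.05), and neither left a pathway gene. Centring on the median gave 2500 calls, 6 members and 14 pathway genes. Leaving out 1 array gave 0 to 2844 calls, 0 to 6 members and 0 to 16 pathway genes. Over all 13647 probe sets, centring gave 1100 calls with 5 of the 12 member probe sets, and leaving out 1 array 0 to 2210 with 0 to 6. Over pairs, leaving out 1 array gave 0 to 88 calls and 0 to 1 of the members (Pgant9, without ZxM replicate 2). The cause was not tested.
Pgant7, at -0.22 with 1 probe set per gene, was at 0.10 with probe sets chosen again, where its other probe set stood for the gene. The other signs that turned were of values near 0. Pgant4 was at -0.0053 after quantile normalization and -0.0067 with centring (1 probe set per gene). Over all probe sets, Pgant2 1639881_at was at -0.0099 (quantile), -0.022 (centring), -0.0075 (cyclic loess) and -0.0036 (replicate block), and Pgant9 1631553_at at -0.0050, -0.011, -0.0052 and -0.0013 in the same order. Pgant7 1637736_a_at was at -0.0056 without array weights (with or without moderation) and -0.023 with centring, and Pgant8 at 0.015 with the replicate block. With 1 array left out, Pgant2 1639535_at ran from -0.10 to 0.033, Pgant2 1639881_at from -0.026 to 0.049, Pgant7 1637736_a_at from -0.031 to 0.057 and Pgant8 from -0.033 to 0.034.
The paper describes both matings in each of 4 replicates. Deviations from the group means of same-numbered arrays correlated at 0.140, -0.271, -0.194 and 0.148, and no ZxZ array matched the ZxM array of its own number best. With 4 arrays per group these values cannot show that the replicates were not blocks.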

Other observations

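The probe sets that followed Pgant7 1629117_at most closely over the 8 arrays, after subtraction of the group means, were those of smash (Pearson's r = 0.994), CG31636 (r = 0.986), Dcr-2 (r = 0.985), CG31522 (r = 0.979) and unk (r = 0.977). They were picked as the highest among the most variable probe set of each other gene, and arrays share their scaling, so these values are a description. Their own differences were -0.15 for smash, -0.013 for CG31636, -0.12 for Dcr-2, -0.044 for CG31522 and -0.19 for unk. Among the members the same measure ran from -0.66 for Pgant8 to 0.80 for Pgant5.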
